A study of Arabidopsis thaliana with 3 samples.

Results

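A set of 38 probe sets on the array gave moderately lower signals in nectaries of the Arabidopsis thaliana mutant cwinv4-1 than in wild-type nectaries. They were chosen from 7750 probe sets tested, out of 14338 besides the controls. A member had to lie at least 2-fold below wild-type on each of the 2 mutant arrays, with a geometric mean of the wild-type over mutant ratios under 3. Exactly 1 gene name is attached to 18 of the 38, and the other 20 are unnamed here. The wild-type and mutant signals themselves chose the members, so the differences between the genotypes below are given as a description. A test across all probe sets is reported once, at the end, as a limit only.

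Lateral nectaries are the nectar glands at the base of the lateral stamens. In the current view of these glands, sucrose made in the nectary leaves its cells through a transporter and is split by a cell wall invertase outside them, which draws water and further sugar into the nectar. CWINV4 encodes that invertase, and the series' title calls its mutant nectarless. The named genes described here are ordered by what their products are known to do, and 6 of the 18 are placed under no role.

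Both genotypes were in the Columbia-0 background. The mutant group consisted of 2 samples carrying the cwinv4-1 allele, the first of which is titled cwinv4-1a, and the wild-type group of 1 sample with no mutation named. Each sample pooled some 250 to 300 hand-dissected glands of stage 14 to 15 flowers from plants 30 to 35 days old, and went onto its own array. Only 3 arrays thus limit the precision of every value, and the wild-type value of each gene has no replicate. Fewer cells of a type and less RNA per cell cannot be told apart in such pooled tissue.

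The arrays differed in ways that touch the members. A signal was given for 11365 to 12455 probe sets per array, with the lowest number on cwinv4-1 replicate 2. Across the tested probe sets log2 differences between the mutant arrays had an SD of 0.56. Against wild-type the SD was 0.41 for replicate 1 and 0.68 for replicate 2. The 3′ to 5′ signal ratio, a sign of RNA or amplification quality, was highest on replicate 2 for 5 of 6 control pairs, and its part in the members' values was not tested. Of 17 marker loci fixed for the nectary, carpel, pollen and green tissue, 5 had a named probe set. The nectary sugar transporter SWEET9 read 16300, 38100 and 19700 on replicate 1, replicate 2 and wild-type, so the defining transporter of the labelled tissue was present on each array, and the other 7 nectary markers were not analysed here. The log2 differences from wild-type of the carpel regulator SPT were -0.19 on replicate 1 and -1.17 on replicate 2, and those of the pollen gene AT3G07820 were -0.21 and -2.36. The green tissue genes RCA and LHCB4.1 differed from wild-type by -0.15 and -0.18 on replicate 1 and by -0.18 and -0.64 on replicate 2. The part of other floral tissue in the members' values was not tested.

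Lower signals by 2-fold on both mutant arrays were found at 77 of 7750 tested probe sets, or 0.994%, and the 38 members are the 0.49% with the smaller ratios. Among tested probe sets with 1 gene name the share was 18 of 4019, or 0.448%. The other 39 of the 77 had ratios of 3 or more. In the opposite direction 100 probe sets were at least 2-fold higher on both arrays, and 63 of those had a ratio under 3. Both ratios share the wild-type array, so a high wild-type reading alone would place a probe set among the members.

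**Figure D1:**
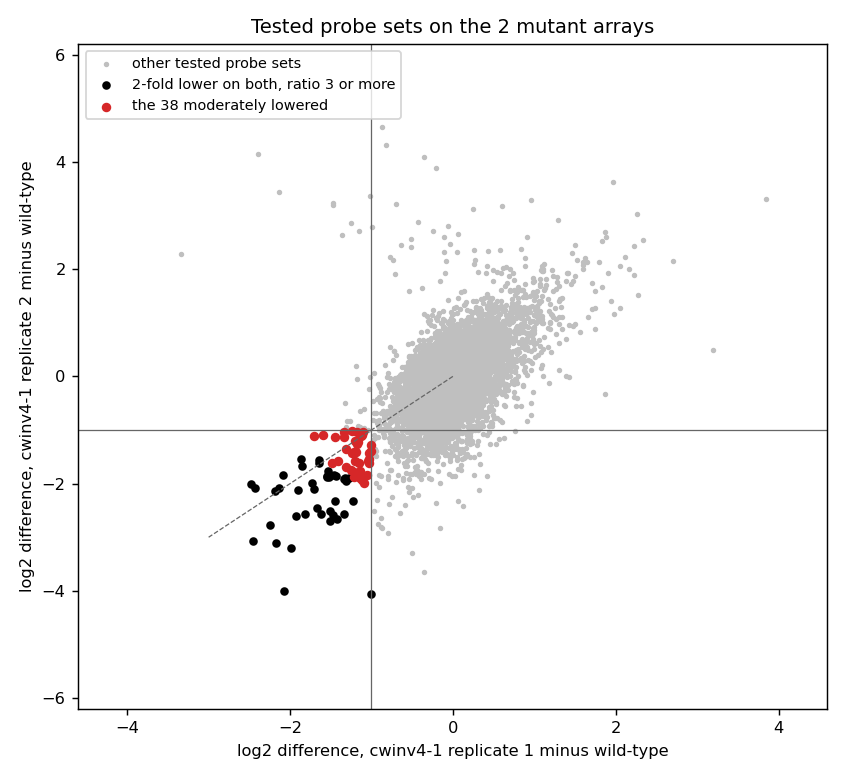
Log2 difference from wild-type on cwinv4-1 replicate 1 (horizontal axis) and replicate 2 (vertical axis) for the 7750 tested probe sets, with solid lines at -1 (2-fold lower) and a dashed line where both arrays are equal. The 38 members, in red, sit in the corner nearest the 2-fold lines, and more of them lie below the dashed line than above it.

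Wild-type signals of the 38 members ran from 536.3 to 10200 with a median of 1494.5, and 25 of the 38 lay above the median of all tested probe sets on that array, 949.6. The rule itself raises these signals, since it sets wild-type above both mutant arrays while the filter acts on the mean of all arrays. Nothing is read from that count. Signals of different probe sets do not rank transcript levels, so only arrays are compared within a gene below. The geometric mean ratios ran from 2.11 to 2.92 with a median of 2.49. On replicate 1 the members were 2.01- to 3.27-fold lower with a median of 2.26, and on replicate 2 they were 2.02- to 3.98-fold lower with a median of 2.66. The named genes covered nearly the same range, from 2.17- to 2.92-fold. A mutant signal lay under the 25th percentile of its array in 6 members, 4 of them named, and in none did both.

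Among the named genes the 5 regulators of transcription and protein turnover had lower signals on replicate 2 than on replicate 1 throughout. The same order held for 4 of the 5 enzyme genes and for 14 of all 18 named genes, so it is not particular to regulators. AT1G26930 encodes an F-box protein with kelch repeats, a class that picks proteins for attachment of ubiquitin. Its signal was 1892 in wild-type and 678 and 620.2 in the mutant replicates 1 and 2, which makes it 2.92-fold lower, the largest ratio of the named genes. Its log2 difference of -1.54 had a spread of 0.06, given throughout as the distance of each mutant array from their mean, so the arrays lay close together.

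AT1G73760, a RING domain protein of the same ubiquitin system, read 842.5 in wild-type and 340.1 and 260.9 in the mutant, a ratio of 2.83. AT5G23340, a leucine-rich repeat protein related to F-box proteins, read 3860 in wild-type and 1924 and 1592 in the mutant. Its ratio of 2.21 rests on a difference of 2.01-fold on replicate 1, the smallest single-array ratio of the named genes, and 2.42-fold on replicate 2.

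Both named regulators of transcription were much lower on replicate 2. AT4G08250 belongs to the GRAS family, plant-specific regulators that include the repressors of gibberellin response. It read 787.5 in wild-type, 358.4 on replicate 1 and 231.6 on replicate 2, so it was 2.20- and 3.40-fold lower on the 2 arrays. AT3G48510 belongs to a small family of repressors induced by abscisic acid, the hormone of water deficit. Its 632.9 in wild-type stood against 303.6 and 178, or 2.08- and 3.56-fold lower. Replicate 2 readings of AT4G08250, AT3G48510 and AT1G73760 were below 266.4, which is the 25th percentile on replicate 2, where the size of a ratio is least certain.

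The 5 genes of enzymes had ratios from 2.28 to 2.88. AT5G52810, which takes part in making pipecolic acid, a lysine derivative of systemic immunity, read 5923 in wild-type and 2351 and 2871 in the mutant. It was the only enzyme gene with the lower reading on replicate 1. BGLU28, a beta-glucosidase linked to the turnover of glucosinolates under sulfur deficiency, read 2348 in wild-type and 1019 and 1013 in the mutant. Its mutant arrays lay closer together than those of any other member, with a spread of 0.0043 around a log2 difference of -1.21.

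AT5G65470, of the O-fucosyltransferase family that adds fucose to proteins or glycans, also differed little between the mutant arrays, with a spread of 0.042. It read 2069 in wild-type and 915.9 and 864.5 in the mutant, a 2.33-fold difference. AT5G10770, an aspartyl protease, read 889.9 in wild-type against 435.7 and 307.8, with 2.04- and 2.89-fold differences. The replicates were furthest apart among the enzyme genes at AT4G33540, of the metallo-beta-lactamase fold, with 1527 in wild-type, 706.5 on replicate 1 and 398.1 on replicate 2. Its log2 difference of -1.53 therefore has a spread of 0.41.

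A membrane protein and a plastid protein complete the genes with a known role. AT1G11960 belongs to the OSCA family of membrane channels that open under osmotic or mechanical stress and pass calcium. Its signal was 612.7 in wild-type and 241.6 and 279.2 in the mutant, a ratio of 2.36, with the lower reading on replicate 1. The product of AT5G24490 resembles a protein of the small subunit of the plastid ribosome and is encoded in the nucleus. It read 2481 in wild-type and 1087 and 939.1 in the mutant, a ratio of 2.46.

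The remaining 6 named genes have no role stated here or, for AT1G74450, one known only from overexpression, which makes plants short and lowers male fertility. AT2G15960 had a signal of 10200 in wild-type. Its mutant readings of 4654 and 4730 lay close together, at a ratio of 2.17. For AT1G74450 the readings were 751.2 in wild-type and 303.3 and 292.8 in the mutant, again close together at a ratio of 2.52.

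Of the other 4 genes, AT1G26920 and AT5G57910 differed little between the mutant arrays. AT1G26920 read 998.7 in wild-type and 424.3 and 495.6 in the mutant, a ratio of 2.18. For AT5G57910 the signals were 1342, 579.5 and 502.5 in the same order, a ratio of 2.49. AT1G63720 read 624.1, 305 and 204.8, so replicate 2 was 3.05-fold lower and replicate 1 2.05-fold. That replicate 2 reading was also below 266.4, the 25th percentile of its array, where the size of a ratio is least certain. The widest gap of any member was at AT3G07640, which read 1175 in wild-type, 551.6 on replicate 1 and 295.2 on replicate 2, or 2.13- and 3.98-fold lower.

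**Figure D2:**
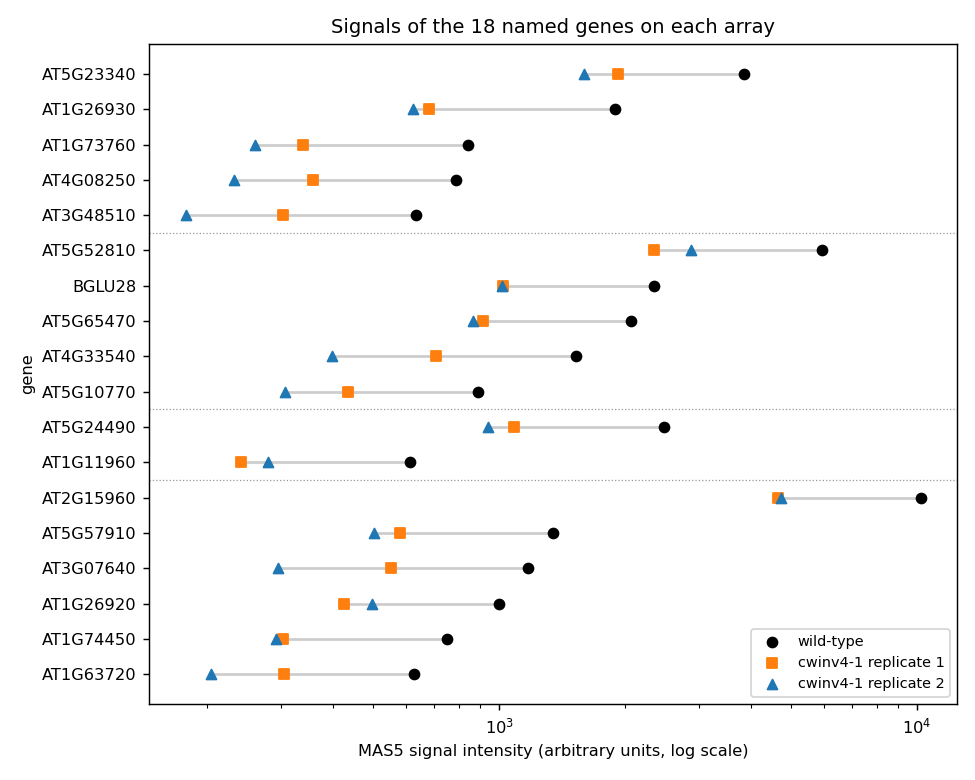
Signal of each of the 18 named genes (rows) on the wild-type array and both cwinv4-1 arrays, on a log scale, one marker per array, with dotted lines between regulators, enzymes, membrane and plastid proteins, and genes with no role given or known only from overexpression. Wild-type lies to the right of both mutant arrays in each row, as the choice of members requires. The mutant markers coincide for BGLU28, at 1019 and 1013, and lie furthest apart for AT3G07640, at 551.6 and 295.2.

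The mutant arrays were not equally low. Replicate 2 read below replicate 1 for 26 of the 38 members, or 68.4%, and for 14 of the 18 named ones. Over all tested probe sets the share was 56.6%, or 4386 of 7750. Of the 17 members with a ratio of 2.5 or more, 15 were lower on replicate 2, against 11 of the other 21. Those 17 had a median ratio of 2.32 on replicate 1 and 3.23 on replicate 2, while the other 21 had medians of 2.19 and 2.32. The ratio that splits them contains the replicate 2 value itself, so nothing is read from this order. The exceptions among the 17 were probe sets 246114_at and 263689_at, which were 3.27- and 3.02-fold lower on replicate 1 and 2.16- and 2.15-fold lower on replicate 2. A gap of more than 1.5-fold between the mutant arrays was seen in 7 of 38 members and in 22.7% of tested probe sets, although the rule itself limits how far apart the arrays of a member can lie.

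The 20 unnamed members had wild-type signals from 536.3 to 8350 and geometric mean ratios from 2.11 to 2.92. Replicate 2 was the lower mutant array for 12 of them. Nearest to the upper bound of the rule, probe set 255795_at read 8350 in wild-type against 3601 and 2270, a ratio of 2.92, beside AT1G26930. Just beyond that bound were AT2G44670, at 6362 against 2634 and 1701 with a ratio of 3.01, and probe set 259911_at, with a ratio of 3.02. At the lower bound AT5G23340 and AT1G26920 were just inside, with smaller ratios of 2.01 and 2.02. Just outside were AT3G62260, 2.06-fold lower on replicate 1 and 1.996-fold on replicate 2, and probe set 251436_at, 1.98- and 2.29-fold lower. The ratios run on across both bounds with small steps, so the bounds are a choice of the rule and not a break in the values.

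Relatives of the named genes, in family lists written after the members were known, gave a mixed picture. Of 15 listed F-box kelch-repeat loci, 6 had a tested probe set. Besides AT1G26930, with log2 differences of -1.48 and -1.61 on replicates 1 and 2, the other 5 averaged between -0.34 and 0.37. AT5G60570 was above wild-type on both arrays, at 0.36 and 0.38, and AT1G30090 below on both, at -0.06 and -0.63. The remaining 3, AT1G14330, AT1G22040 and AT2G02870, were on different sides of wild-type on the 2 arrays. None of the 5 was 2-fold from wild-type on either array.

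In the OSCA family 4 of 15 loci were tested. AT1G11960 had log2 differences of -1.34 and -1.13. AT4G35870 and AT1G69450 were slightly above wild-type on both arrays, with means of 0.13 and 0.17, and AT1G10090 was at -0.73 on replicate 1 and 0.30 on replicate 2. Another probe set of AT1G10090, with signals too low to pass the filter, was at 0.13 and 0.06. AT4G15430 and AT3G54510, also under the filter, were above wild-type, at 0.62 and 1.31 and at 0.78 and 2.05. Of the family, AT1G11960 alone was thus lower on both arrays among the tested loci.

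Among 4 tested beta-glucosidase genes BGLU28 was at -1.20 and -1.21. BGLU16 went the other way, at 0.87 and 0.82, with a signal of 1306 in wild-type and 2385 and 2305 in the mutant. BGLU42 and BGLU25 had mean log2 differences of -0.24 and -0.34. The only other tested gene of 10 listed sulfur deficiency loci, AT1G04770, was above wild-type at 0.47 and 0.15. Of 29 listed GRAS loci 2 were tested, and SCL21 was higher than wild-type by 0.85 and 0.55 where AT4G08250 was lower. With signals too low to pass the filter, AT5G59450 was at -0.52 and -0.48 and AT2G29065 at 0.05 and 0.40. The partners of AT5G52810 among 9 loci of pipecolate and systemic immunity, and all 28 listed loci of abscisic acid signalling, were not analysed here. Whether AT5G52810 and AT3G48510 moved with their pathways was therefore not tested.

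**Figure D3:**
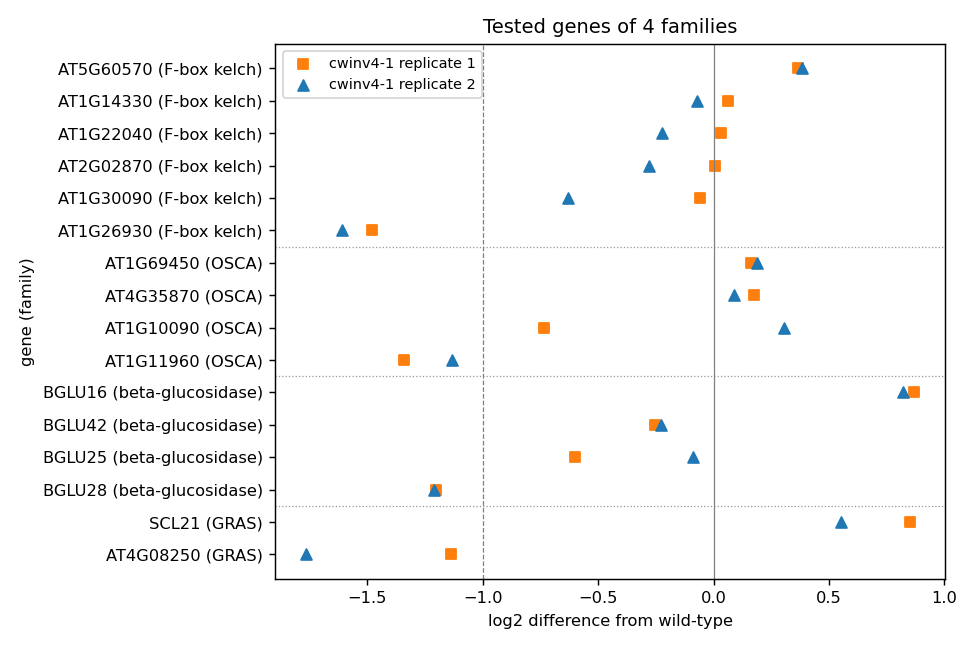
Log2 difference from wild-type on each mutant array for the tested genes of 4 families that hold a member, with a solid line at 0 and a dashed line at -1, which is 2-fold lower. In each family only the member, AT1G26930, AT1G11960, BGLU28 or AT4G08250, lies left of the dashed line on both arrays.

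Word classes set up from gene names, such as transcription regulators, protein turnover or redox, held 192 tested probe sets and none of the 38 members. Of the named members 17 carry a locus code as their only symbol, so a search by name words could not place them. LEA4-5, of the dehydration and cold class, was the only 1 of the 192 at least 2-fold lower on both mutant arrays. Over all tested probe sets the share was 0.994%. That class had the lowest median log2 difference of the 16 classes, -0.49 over 8 tested probe sets, against -0.05 over all tested. It was picked out for being the lowest, so nothing is read from it.

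Positions in the genome were compared by gene order alone. AT1G26920 and AT1G26930 are both members and lie in the same stretch, with 1 protein-coding locus, AT1G26921, between them. The neighbour beyond, AT1G26940, read 117.5 on replicate 1 and 158.5 in wild-type with no signal on replicate 2, and was not tested. Within 2 protein-coding loci on either side of the 18 named genes there were 25 named probe sets, of which 12 were tested. Of those 12, 8 were lower than wild-type on both arrays, where the share over all tested probe sets was 37.2%. Only 2 of the 12 were 2-fold lower on both, and these are AT1G26920 and AT1G26930 themselves, each counted as the neighbour of the other. The 12 were found around genes chosen for being low, and nothing is read from their share.

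None of the 38 members passed limma's moderated test over all tested probe sets at an adjusted p of 0.05, where 16 lower probe sets passed, or 0.206%. The rule keeps the 39 probe sets with ratios of 3 or more out of the members. Nothing is therefore read from the absence of members among the calls. Adjusted p ran from 0.11 to 0.469 over the members, and limma's SE of the log2 difference from 0.37 to 0.44. All 38 had an unadjusted p under 0.05, as did 3.02% of tested probe sets in the lower direction; the rule used the same contrast, so nothing is read from that. Without the filter on low signals 9 members passed limma's test at an adjusted p of 0.05, where 0.629% of the probe sets tested passed as lower. With the filter at the 50th percentile 6 members passed beside 0.871% of probe sets, and with each array centred on the median of all its signals 2 passed beside 0.671%. In 6 further settings no member passed. These counts show how unsettled the calls are, and since the members were chosen on the same values they support no gene.

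**Figure D4:**
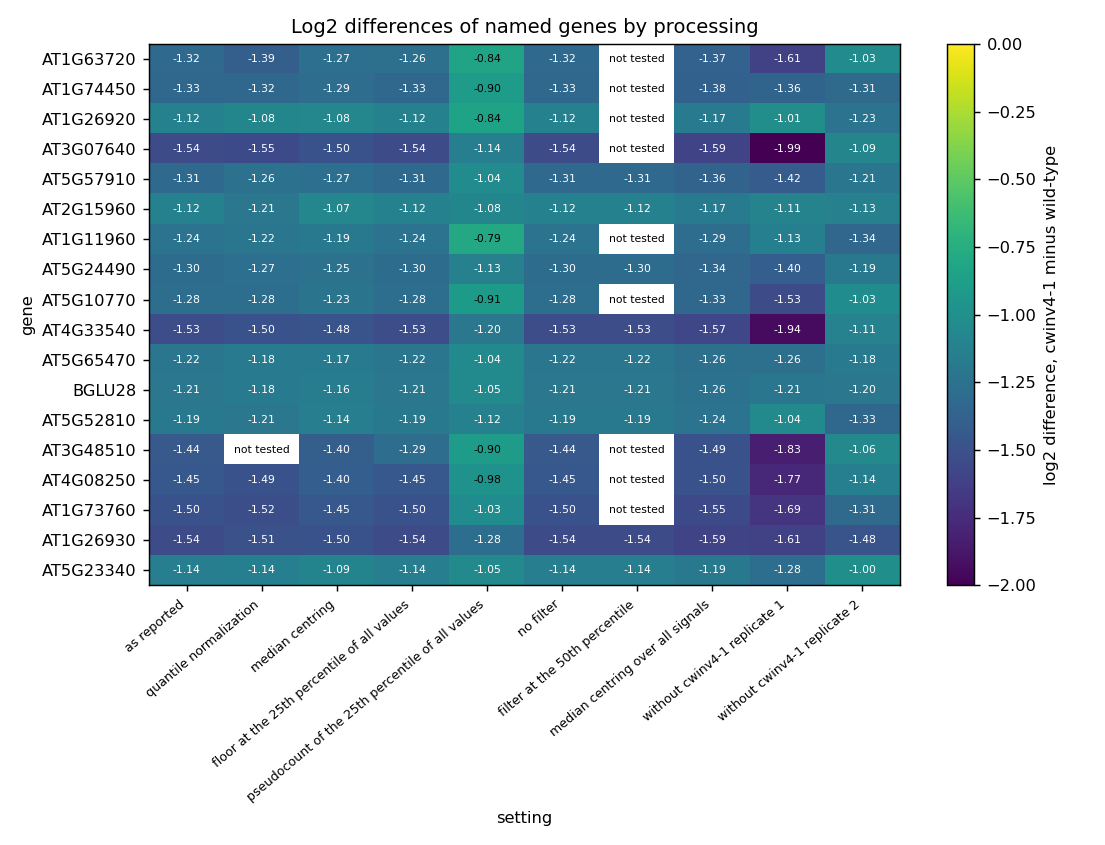
Log2 difference of each of the 18 named genes (rows) under the reported processing and 9 other settings (columns), with the value written in each cell and "not tested" where the gene fell under the filter. Each value shown is below 0. The values nearest 0 are those with a pseudocount, up to -0.79 for AT1G11960, and the largest is -1.99 for AT3G07640 without replicate 1.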

How the data were processed

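RNA of 2 cwinv4-1 samples and 1 wild-type sample of lateral nectaries was measured on 1-colour Affymetrix arrays. The authors deposited 1 intensity per probe set and array on a linear scale, from MAS5 (version not stated) per the submitters' processing notes. Further wild-type arrays entered the normalization, per the design text. Cells reading null were kept as missing. Gene names came from GEO's platform annotation and the RefSeq gene table of TAIR10.1: of 14338 probe sets, 8037 had 1 gene name, 335 several and 5966 none, and 8000 matched a locus. With no build named in the files, coordinates are left out.

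Deposited intensities were taken to log2 without further normalization, in Python 3.11.15. The 7750 probe sets tested were left from 10334 measured on every array once those with a mean log2 intensity under the 25th percentile were dropped. A difference is cwinv4-1 minus wild-type, averaged over the mutant arrays, and its spread is the distance of each mutant array from their mean. limma 3.58.1 in R 4.3.3 (lmFit, eBayes with trend, two-sided, Benjamini-Hochberg over all tested probe sets) had 1 residual degree of freedom, so it takes the wild-type array to be as variable as the mutant ones. It was tested on simulated data. Nothing says whether the mutant samples came from separate plantings, so p-values measure no spread beyond that between the 2 mutant arrays. For each gene, limma draws most of that spread from all tested probe sets, with 15.4 prior degrees of freedom against the 1 residual. How close the mutant arrays of 1 gene lie thus weighs little in its p-value. The members and lists were chosen with earlier results of these data known. Each member with exactly 1 gene name is named, and other probe sets only where nearest to a threshold of the rule. Relatives of members in the family lists and 2 unnamed members lower on replicate 1 were named after their values were seen. Roles are background knowledge. Promoter motifs were not analysed here.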

Additional observations from a re-analysis of the deposited data

How the results depend on the processing

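All 18 named genes kept their direction in every setting in which they were tested, 152 values between -1.99 and -0.79, of which 145 were at or below -1. The rule fixes this direction when either array is left out, and the filters leave a value as it is, so it is no sign of stability. The 7 others came with a pseudocount at a signal of 222, which lowers differences by construction. The number of members was 33 after quantile normalization, 38 after median centring, 41 with a floor at 222, 28 with the pseudocount and 47 without the filter, of which 30, 32, 38, 10 and 38 were among the 38. With the filter at the 50th percentile 22 remained, 9 of them with 1 gene name, since fewer probe sets were tested. Changing the thresholds gave 219 (101 with 1 name) at 1.5-fold, 21 (11) for ratios under 2.5 and 58 (28) for ratios under 4. Applying the rule to 1 mutant array gave 74 without replicate 2 and 369 without replicate 1, with 40 and 166 named. Centring on the median of all signals of each array, chosen after seeing the data, kept 33 of the 38; the median of all signals lies 0.11 higher on replicate 2 than on wild-type on the log2 scale, so that centring lowers replicate 2. Over probe sets present on all arrays the difference in medians is -0.09, and the centring raises it. Limma calls over all tested probe sets were 33 as reported and 0 after quantile normalization (242 higher and 155 lower at an unadjusted p under 0.05), after median centring (250 and 149) and with the floor (260 and 219). They were 126 without the filter, 90 with the filter at the 50th percentile and 95 after centring on all signals; the cause was not tested. With 1 mutant array left out limma has no residual degree of freedom and was not run. Class medians were not followed, since no class held a member. No paired analysis was possible because the groups share only 1 replicate number. The number of arrays limits all values, and low signals limit the 6 members with a mutant reading under the 25th percentile of its array.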
